A study of Rattus norvegicus with 32 samples.

Results

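The renal cortex of diabetic, sham-operated rats was compared with that of Sprague Dawley control rats. The 2 groups were SHAM, which are male Zucker Diabetic Sprague Dawley (ZDSD) rats after a sham laparotomy, and SD, which are male Sprague Dawley rats. Of the 31 libraries with counts, 13 entered the comparison, 7 from SHAM and 6 from SD. SHAM libraries with a total under 1000000 counts were left out, which removed rats 343 and 348 with totals of 121511 and 101534. The lowest total kept was 14502127. The ZDSD rats had received insulin degludec before surgery, and the methods describe no operation in SD rats. Both groups carried an age of 37 weeks in the labels, while the surgery and collection times in the methods add up to a younger age in SHAM. Strain, diabetes, surgery, the insulin given before it and any difference in age therefore cannot be told apart in this comparison. The 9 RYGB rats (ZDSD with Roux-en-Y gastric bypass) and 7 RYGB-FMRR rats (ZDSD with the bypass and fenofibrate, metformin, ramipril and rosuvastatin) are used below only to show the level of single genes.

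The ZDSD rat becomes obese and diabetic without a mutation in the leptin receptor, and it is used as a model of diabetic kidney disease. Renal cortex is mostly proximal tubule, the nephron segment that reabsorbs glucose, amino acids and phosphate and that burns fatty acids for the energy this takes. The cortex also holds glomeruli, distal nephron, vessels and, in disease, infiltrating leukocytes and matrix-forming cells. RNA from all of these was sequenced together, so that fewer cells of a type and less RNA per cell cannot be told apart. Counts were listed by Ensembl identifier of rat build rn5. No identifier could be matched to a symbol with the tables used here (0 of 26404), so marker genes of the cortex and lists of pathway genes were not analysed here. The genes are described by direction, size of change, level, length, position and behaviour in each rat.

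Total counts ranged from 20896370 to 27597901 in SD and from 14502127 to 23995113 in SHAM. Between 17146 and 17652 genes had a count in each SD library, and between 17200 and 17742 in each SHAM library. The most abundant gene took 0.871% to 1.342% of the counts in SD and 0.74% to 0.979% in SHAM. No pair of libraries was identical. Rats 333 (SHAM) and 353 (SD) stood apart from their groups in several measures. Counts of called genes, in all and in some deciles, are therefore given below without each of them as well. Other results include both rats unless stated.

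SHAM compared with SD changed expression of 2342 of 14387 tested genes (16.3%), where a call needed a fold change of 1.3 or more in either direction and, in edgeR's quasi-likelihood test, a p-value under 0.05 after Benjamini-Hochberg adjustment. Of these, 1290 were higher in SHAM (8.97% of the tested genes) and 1052 were lower (7.31%). The changes were mostly small. Among the higher genes, 1002 differed by less than 1 on the log2 scale, 238 by 1 to 2, 37 by 2 to 3 and 13 by more than 3. Among the lower genes the numbers in these ranges were 782, 200, 39 and 31. More genes were therefore lower than higher among those with the largest differences. The median log2 fold change was 0.68 over the higher genes, which is 1.61-fold, and -0.65 over the lower genes, which is 0.639 of the level in SD. Over all tested genes it was 0.01. With the adjusted p-value alone and no limit on the fold, 4011 genes (27.9%) passed. Without rat 333 the numbers were 1073 higher and 893 lower, and without rat 353 they were 1521 higher and 1129 lower, counted over the same 14387 genes. With 2 surrogate variables as covariates, 2024 genes were called and 571 of the 2342 calls were lost.

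**Figure D1:**
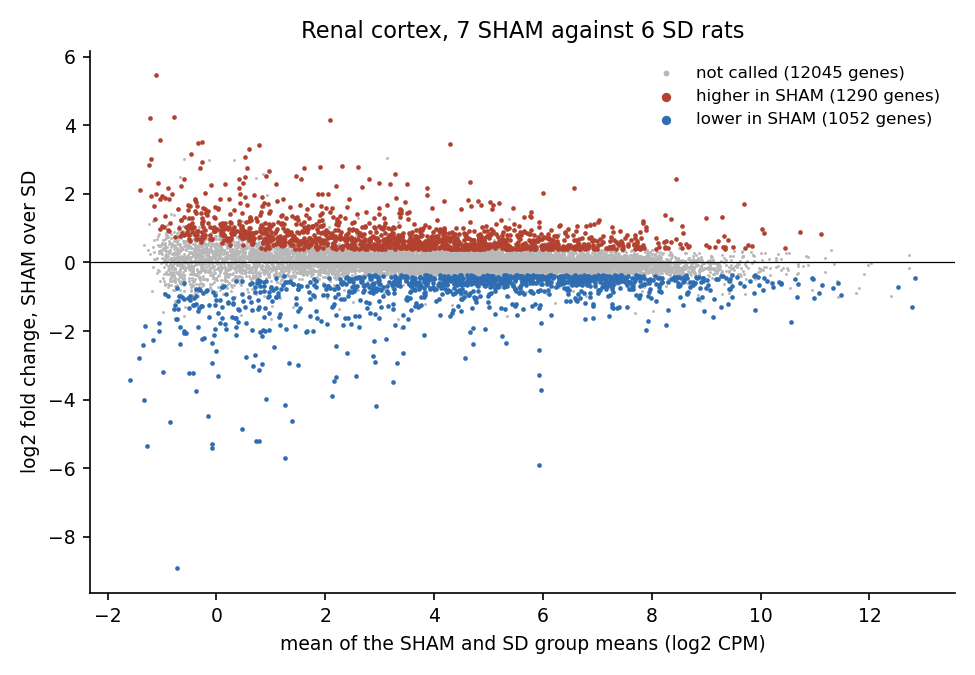
Each point is 1 of 14387 tested genes, with the mean of the 2 group means in log2 CPM (counts scaled to library size) on the horizontal axis and the log2 fold change of SHAM over SD on the vertical axis. The 1290 genes called higher (red) lie mostly at low and middle levels, and the 1052 called lower (blue) reach to the right, among the most abundant genes.

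For a view of single genes, the 2 smallest adjusted p-values in each direction were taken from the called genes whose groups did not overlap. They were chosen by this contrast, and their values show how it looks in single rats. Levels of one gene across rats are in log2 CPM, on library sizes scaled by edgeR's TMM method.

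ENSRNOG00000025654 (rn5 chromosome 9, 19202532 to 19237355, minus strand, 14 merged exons) was 5.99-fold higher in SHAM. It lay at 1.67, 1.88 and 2.71 log2 CPM (lowest, median and highest) in the 6 SD rats and at 4.01, 4.61 and 4.92 in the 7 SHAM rats. The highest SD rat was below the lowest SHAM rat by more than the range within either group. The means were 2.0 ± 0.38 (standard deviation, n = 6) in SD and 4.57 ± 0.29 (standard deviation, n = 7) in SHAM, and edgeR gave a log2 fold change of 2.58 ± 0.18 (standard error) at an adjusted p of 1.06e-06.

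ENSRNOG00000001711 (chromosome 11, 78170405 to 78188507, minus strand, 4 merged exons) showed the largest fold of the 4. Its levels in SD were -1.35, -0.88 and -0.17 log2 CPM, from 7 to 20 counts a library, and in SHAM 1.87, 2.39 and 3.05 log2 CPM, from 88 to 137 counts. Reads of the gene were few in all SD rats, and every SHAM rat lay above them. edgeR gave a log2 fold change of 3.42 ± 0.25 (standard error), or 10.7-fold, at an adjusted p of 1.64e-06.

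ENSRNOG00000009459 (chromosome 6, 36910714 to 36922551, minus strand, 6 merged exons) had the smallest adjusted p-value of all tested genes. It lay at 4.25, 4.36 and 4.43 log2 CPM in SD and at 2.48, 2.7 and 2.84 in SHAM. Both groups were tight, with standard deviations of 0.07 (n = 6) and 0.13 (n = 7) around means of 4.35 and 2.69. edgeR gave a log2 fold change of -1.66 ± 0.07 (standard error) at an adjusted p of 7.92e-09, so SHAM held 0.315 of the SD level. The gene overlaps 1 other annotated gene on the same strand, and reads in the shared bases could have been left out of both.

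ENSRNOG00000020659 (chromosome 8, 22078081 to 22084096, plus strand, 9 merged exons) was the most abundant of the 4 in both groups per length. It lay at 5.87, 6.07 and 6.16 log2 CPM in SD and at 4.65, 4.84 and 4.94 in SHAM. The lowest SD rat was far above the highest SHAM rat. edgeR gave a log2 fold change of -1.22 ± 0.06 (standard error) at an adjusted p of 2.68e-08, so SHAM held 0.428 of the SD level. Per kilobase of exonic length, mean levels in SD were 42.1 RPKM (CPM per kilobase) for ENSRNOG00000020659, 6.97 for ENSRNOG00000009459, 1.51 for ENSRNOG00000025654 and 0.195 for ENSRNOG00000001711. In SHAM they were 18.1, 2.22, 8.84 and 1.82 RPKM in the same order.

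The RYGB and RYGB-FMRR rats share with SHAM the ZDSD strain with its diabetes, an operation and the insulin given before it. For all 4 genes their levels lay on the SHAM side of SD without touching the SD range. ENSRNOG00000025654 had a range of 3.8 to 4.82 log2 CPM in RYGB and of 3.6 to 4.17 in RYGB-FMRR. ENSRNOG00000001711 had one of 1.66 to 2.44 in RYGB and of 1.66 to 2.13 in RYGB-FMRR. These levels overlapped those of SHAM, but the RYGB-FMRR medians (3.87 and 1.86) lay below the lowest SHAM rat (4.01 and 1.87). The RYGB medians (4.45 and 2.1) lay within the SHAM range. ENSRNOG00000009459 lay between 2.45 and 2.79 in RYGB and between 2.5 and 2.72 in RYGB-FMRR. ENSRNOG00000020659 lay between 4.65 and 4.93 in RYGB and between 4.77 and 5.09 in RYGB-FMRR. For these 4 genes, the 23 ZDSD rats of the 3 groups were separated from the 6 SD rats whatever the operation and medication. For the SHAM rats this was fixed by the choice of the genes. Strain and the other conditions that the 3 groups share cannot be told apart here. Differences between the ZDSD groups were not tested here.

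**Figure D2:**
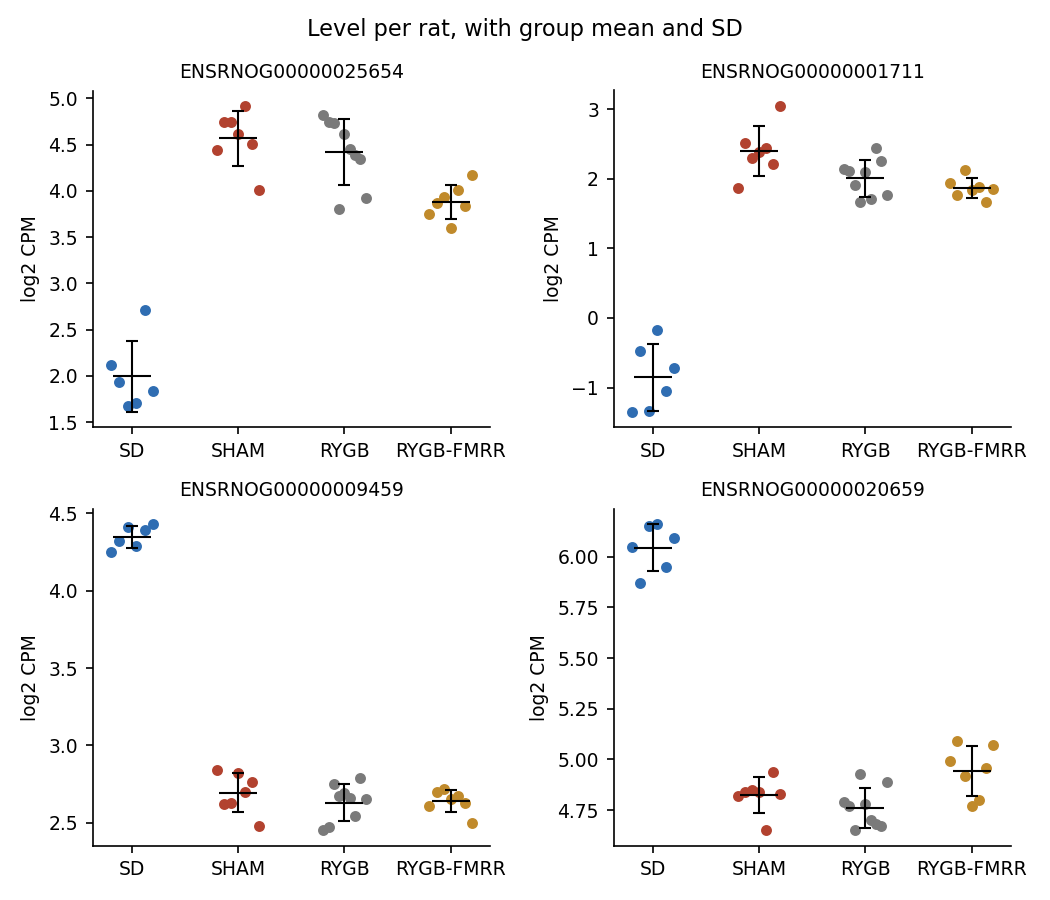
Levels of the 4 genes in log2 CPM (vertical axes, which do not start at 0) in each SD, SHAM, RYGB and RYGB-FMRR rat, with each point a rat and the bars the group mean and standard deviation. In each panel the SD rats stand alone, as for ENSRNOG00000009459 with SD at 4.25 to 4.43 and the other groups at 2.45 to 2.84.

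Most called genes did not separate the rats this cleanly. The groups did not overlap for 1260 of the 14387 tested genes (8.76%), with SHAM above SD in 584 (4.06%) and below in 676 (4.7%). Of the called genes, 436 of the 1290 higher (33.8%) and 441 of the 1052 lower (41.9%) were among them. These counts share their contrast with the calls, so they are a description. The other 383 genes without overlap were not called, and 372 of these had an adjusted p-value under 0.05 with a fold change below the limit. In another 411 higher genes (31.9%) and 296 lower genes (28.1%), 6 of the 7 SHAM rats lay beyond the range of all SD rats. In 97 higher and 90 lower genes, at most 3 of the SHAM rats did. The number of genes without overlap changed with single rats. It was 1958 without rat 340, 2104 without rat 353 and 614 with the 2 low libraries kept.

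The SHAM rats differed in how far they lay from SD. To measure this without letting a rat choose its own genes, the test was run without each rat in turn. The rat left out was then read over the genes called by the others. The SD rats that serve as the reference took part in choosing those genes, so the measure is not free of selection. Over these genes, rat 340 lay at a median of 0.3 log2 CPM above the SD mean for higher genes and at -0.34 for lower genes. Rat 321 lay at 0.47 and -0.47, and rat 334 at 0.52 and -0.57. Rats 317, 311 and 315 lay close together, at 0.63 and -0.63, at 0.69 and -0.63, and at 0.74 and -0.72. Rat 333 lay farthest, at 0.99 and -1.05. The range over the 7 rats was therefore about as wide as the median difference of the group, and the order was the same for higher and for lower genes, apart from a tie of rats 317 and 311. Rat 340 was not the nearest to SD in every gene, and for ENSRNOG00000001711 its 3.05 log2 CPM was the highest level in SHAM. In every SHAM rat most of the genes lay in the direction seen in the others. The share with that direction was 83.4% of the higher and 85.9% of the lower genes in rat 340, and between 95.7% and 99.8% in the other SHAM rats. For SD rats left out in the same way, it was 80.7% and 73.1% in rat 353. It was 76.1% and 73.7% in rat 356, and between 31.0% and 57.0% in the other SD rats. For higher genes the share in rat 340 was thus close to that in SD rat 353.

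The SD rats spread over a smaller range along the same genes. Read against the mean of the other SD rats, rat 355 lay at -0.16 log2 CPM for higher genes and at 0.11 for lower genes, on the far side from SHAM. Rat 354 lay at -0.01 and 0.08, rat 352 at 0.02 and -0.03, rat 357 at 0.04 and -0.06, and rat 356 at 0.18 and -0.13. Rat 353 lay at 0.29 and -0.18, next to the SHAM rat 340 at 0.3 for higher genes. By these medians the groups stayed in order, but for higher genes only just, with 0.29 in rat 353 and 0.3 in rat 340. Those values were read over different genes and against different sets of SD rats. The gap between the groups was small beside the spread among SHAM rats.

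**Figure D3:**
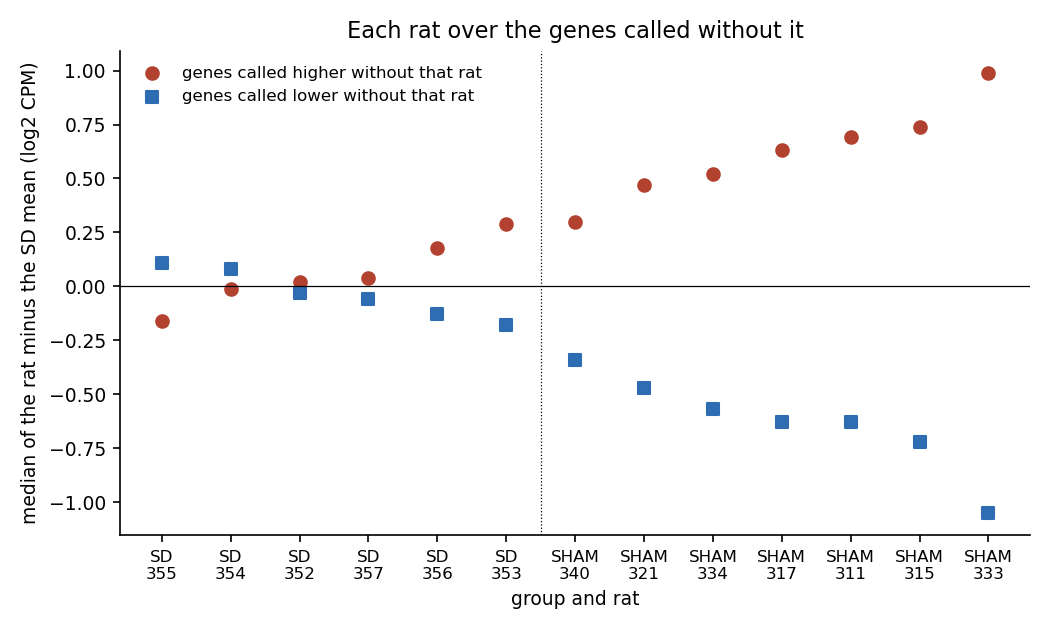
Median over genes of a rat's log2 CPM minus the SD mean (vertical axis; for an SD rat, the mean of the other SD rats), for genes called higher (red circles) and lower (blue squares) in the fit without that rat, with rats on the horizontal axis ordered by the first value within each group. SD rats lie between -0.16 and 0.29 for higher genes, and SHAM rats rise from 0.3 in rat 340 to 0.99 in rat 333.

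The share of called genes in which a SHAM rat lay beyond all SD rats had a similar order. It was 45.1% of the higher and 53.9% of the lower genes in rat 340. In rats 321 and 334 it was 72.5% and 72.7% of the higher genes and 74.9% and 78.4% of the lower genes. In the other 4 SHAM rats it was between 85.3% and 89.5% of the higher genes and between 80.0% and 89.4% of the lower genes. Each SD rat was read against the other SD rats, which are fewer and so easier to lie beyond. The share was 51.7% of the higher and 38.6% of the lower genes in rat 353, and 31.8% and 25.4% in rat 356. It was between 7.1% and 27.0% in the other SD rats. For higher genes SD rat 353 was thus above SHAM rat 340 by this measure.

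Principal component analysis of log2 CPM in these 13 rats, which uses no group labels, gave a first component with 48.1% of the variance and a second with 13.4%. Scores on the first ran from -41.7 (rat 355) to -19.3 (rat 353) in SD and in SHAM from -2.5 (rat 340) to 60.7 (rat 333). The second component set rat 340 (36.4) and rat 321 (24.7) against rat 333 (-25.5) within SHAM, while the SD rats lay between -19.0 and 5.4. Rat 333 had the lowest total count of the 13 libraries, 14502127, and the part of depth in these scores was not tested. The next lowest totals were 16195181 in rat 315, with a score of 37.5 on the first component, and 16685661 in rat 340, with a score of -2.5.

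Variation among SHAM rats was only slightly larger than among SD rats for a typical gene. The median over tested genes of the standard deviation of log2 CPM was 0.184 in SHAM and 0.162 in SD, and it was larger in SHAM for 8447 of 14387 genes (58.7%). For called genes, which the contrast chose, this share was 60.3% of the higher and 66.4% of the lower genes. A single rat stood apart from its group in 1532 genes in SHAM (10.6% of those tested) and in 836 in SD (5.81%), by a gap above Dixon's 95% critical value, which chance alone passes in about 1 in 20 genes. Rat 333 was that rat in 1154 of the 1532 genes (75.3%), 457 of them above and 697 below the other SHAM rats. Rat 353 was that rat in 355 of the 836 genes in SD (42.5%).

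Higher and lower genes differed in abundance. Tested genes were split into deciles by their mean level per length (RPKM) over all 13 rats. In the lowest decile, with a median of 0.535 RPKM, 16.7% of the genes were higher in SHAM and 8.06% were lower. In the fifth decile, with a median of 9.93 RPKM, 7.71% were higher and 5.14% lower. In the highest decile, with a median of 126.0 RPKM, only 5.49% were higher and 15.1% were lower. The share of higher genes fell along most of the scale, and the share of lower genes was largest at its upper end. The median log2 fold change of all genes, called or not, went from 0.197 in the lowest decile to -0.135 in the highest.

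Of the 100 most abundant genes, each above 527.0 RPKM, 27 were lower in SHAM, 5 were higher and 68 were not called. Their log2 fold change was below 0 for 75 of the 100, with a median of -0.16. Together they took 16.3% to 18.8% of all counts in the SD rats and 11.7% to 15.9% in the SHAM rats, ranges that did not overlap. Rat 333 was the lowest at 11.7%, and the next SHAM rat stood at 14.3%.

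The called genes took up a changed share of the library. Genes called lower held 17.9% ± 0.975 (standard deviation, n = 6) of the counts in SD and 11.7% ± 1.84 (standard deviation, n = 7) in SHAM. In SHAM this share was 14.0% in rat 340, 13.2% in rat 321, 12.4% in rat 334, 11.9% in rat 317, 11.4% in rat 311, 11% in rat 315 and 8.28% in rat 333. Genes called higher held 4.53% ± 0.428 (standard deviation, n = 6) of the counts in SD and 8.02% ± 1.49 (standard deviation, n = 7) in SHAM, from 6.13% in rat 340 to 10.7% in rat 333. The smaller group of lower genes thus held the larger share of RNA in all 13 rats but rat 333. These genes were chosen by the contrast, so the shares are a description.

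Higher genes were also longer. The median exonic length was 2252.5 bases for higher genes, 1814.5 for lower genes and 2012.0 for genes that were not called. Median numbers of merged exons were 9, 7 and 9. In the longest decile of genes, 11.3% were higher and 5.28% lower, and in the shortest decile 7.16% were higher and 7.57% lower. Because RPKM is divided by length, the split by level and the split by length are not independent.

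**Figure D4:**
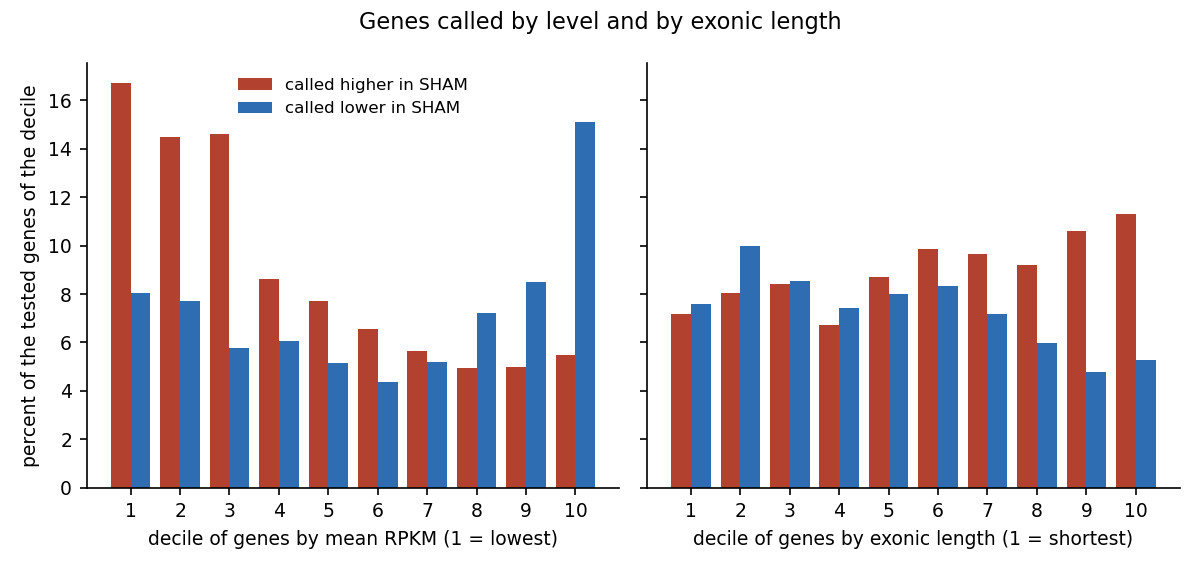
Percent of the tested genes called higher (red) and lower (blue) in SHAM, in deciles by mean RPKM over the 13 rats (left) and by exonic length (right), with the first decile the lowest or shortest. In the left panel the higher genes go from 16.7% to 5.49% and the lower genes reach 15.1% in the highest decile; in the right panel the higher genes reach 11.3% in the longest decile.

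A tilt with length and level was seen in single rats too, and in SHAM it was largest in rat 333, which lay farthest from SD. For length it did not follow the order of the other SHAM rats. It was 0.09 in rat 340, the nearest to SD, and 0.02 in rat 315. Over all tested genes, the median difference from SD was larger by 0.4 (log2) in the longest than in the shortest decile in rat 333, and by 0.02 to 0.13 in the other SHAM rats. In SD rats, read against the other SD rats, it was 0.24 in rat 353 and between -0.1 and 0.01 in the others. The same difference between the highest and the lowest decile by level was -0.82 in rat 333 and -0.41 in rat 353. It lay between -0.44 and -0.13 in the other SHAM rats and between -0.15 and 0.3 in the other SD rats. By level the order of the SHAM rats was followed in part. The difference was -0.15 in rat 340, -0.25 in rat 321, -0.3 in rat 317 and -0.44 in rat 311. Rats 334 (-0.13) and 315 (-0.2) broke that order. Whether RNA quality or library preparation had a part in these tilts was not tested. Without rat 333 the highest decile by level held 174 lower and 67 higher genes, against 217 and 79 with it. The lowest decile held 195 higher and 106 lower genes without that rat, against 240 and 116. Without rat 353 these numbers were 251 lower and 75 higher in the highest decile and 269 higher and 107 lower in the lowest. The excess of lower genes at the top and of higher genes at the bottom of the scale was thus present without either rat. The longest decile likewise held more higher than lower genes without rat 333 (127 and 73) and without rat 353 (221 and 75).

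Called genes lay on every chromosome. The share of tested genes that were called was lowest on chromosome 12 (11%) and chromosome 16 (12.6%) and highest on chromosome 20 (18.8%) and chromosome 17 (20%). Higher genes made up 5.6% of those on chromosome 12 and 10.4% on chromosomes 9 and 17. Lower genes varied more, from 3.33% on chromosome 16 (14 of 420 genes) to 9.68% on chromosome 17 (42 of 434). Chromosome 16 thus held 39 higher and 14 lower genes, while chromosome 6 held 43 higher and 55 lower. Genes whose groups did not overlap were most frequent on chromosome 20 (50 of 421, 11.9%) and least on chromosome 11 (24 of 357, 6.72%). The X chromosome, present once in these male rats, was close to the whole, at 16.0% called.

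**Figure D5:**
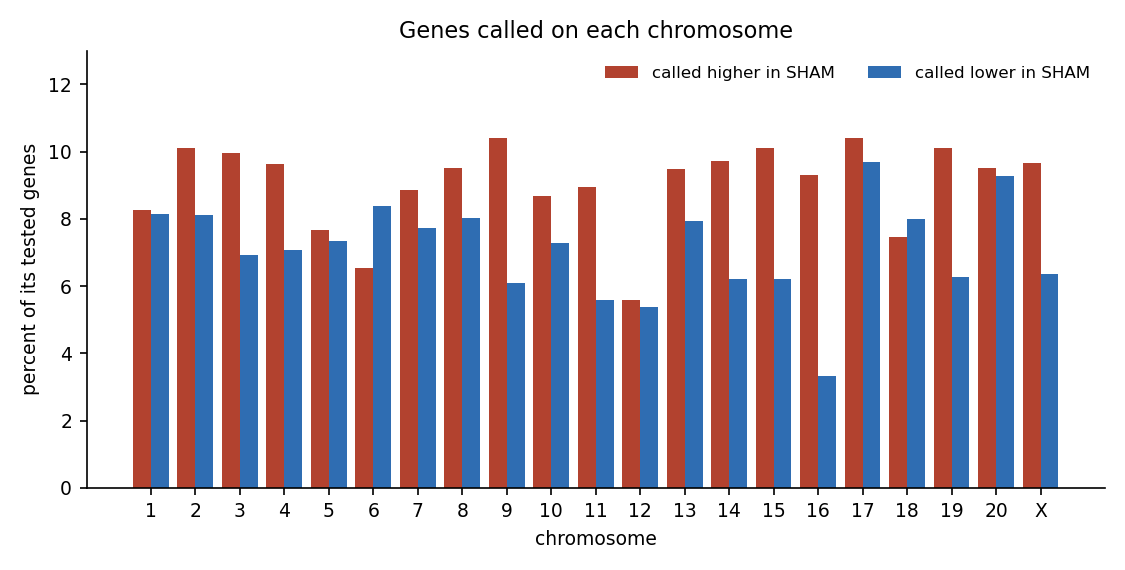
Percent of the tested genes of each chromosome (horizontal axis) called higher (red) and lower (blue) in SHAM. Lower genes are fewest on chromosome 16 at 3.33% and most frequent on chromosome 17 at 9.68%, and higher genes are fewest on chromosome 12 at 5.6%.

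Neighbouring genes tended to be called in the same direction. Of 1287 higher genes followed by another tested gene on the chromosome, 183 (14.2%) had a next gene that was also higher, against 8.97% of all tested genes. The next gene was lower for 75 of them (5.83%), against 7.31% of all. For 1050 lower genes, the next gene was lower for 152 (14.5%), against 7.31% of all, and higher for 77 (7.33%), against 8.97% of all. No test was made, since neighbouring genes can be copies of one another or share reads.

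Called genes were also dense in a few regions. In windows of 20 consecutive tested genes the median number called was 3, and 533 of 13988 windows held none. The densest window, with 13 called genes, lay on rn5 chromosome 17 from 44449940 to 45664556, and 9 of its genes were higher and 4 lower. In 7 of its genes the groups did not overlap. A window on chromosome 1 from 102766762 to 103411351 held 11 called genes, 9 of them lower and 2 higher, and 9 of its genes separated the groups without overlap. In contrast, a window on chromosome 14 from 44618848 to 47378402 held 9 higher genes and 1 lower gene, and the groups did not overlap in 3 of its genes. Windows with 11 called genes on chromosome 2 (132726333 to 138411897) and chromosome 3 (55291465 to 62535124) were mixed, with 7 higher and 4 lower, and 5 higher and 6 lower. Windows slid by 1 gene, and of windows that overlapped, the one with the most called genes was kept. Of the 9 windows with at least 10 called genes kept in this way, the other 4 lay on chromosomes 1, 7 and 8. These windows were picked for their counts, and no chance level was computed for them.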

How the data were processed

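Total RNA from renal cortex was sequenced as stranded libraries after removal of ribosomal RNA, per the labels. The authors trimmed reads, aligned them to rn5 with STAR and counted read pairs on exons of Ensembl genes with featureCounts 1.6.4, on the reverse strand (file headers). The deposited values are raw counts per gene, neither normalized nor filtered, for 26404 genes. All 37 mitochondrial genes were at 0 in every library.

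Genes were filtered with filterByExpr (minimum count 10), which left 14387, normalized by TMM and tested with the quasi-likelihood test in edgeR 4.0.16 (R 4.3.3) on the 7 SHAM and 6 SD libraries, with no covariate. Calls used the study's limits of 1.3 for the fold change and 0.05 for the Benjamini-Hochberg adjusted p-value, although the study used DESeq2. The standard error of a log2 fold change was its absolute value over the root of F. Log2 CPM used a prior count of 2. The fit was tested on simulated counts for this comparison, in which 165 of 200 changed genes of 14387 were recovered, 8 unchanged genes were called, and 0 were called where none had changed.

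The comparison and the gene lists were chosen with earlier results of these data known. Named genes were to include the smallest adjusted p-values in each direction among genes with a symbol, the largest folds, and members of lists of cell type markers and pathways. As no identifier was paired with a symbol, the rule was narrowed to the 2 genes in each direction with the smallest adjusted p-values among called genes without overlap between groups, and the lists were not used. Labels give no batch. Rats are separate animals. Alternatives were DESeq2 1.42.0, its size factors in edgeR, no filter, adjusted p alone, the 2 low libraries kept, all 4 groups in one fit, 2 surrogate variables (sva 3.50.0), and each library left out. Leaving out rats 333 and 340 together, and the alternatives for deciles of level and length, were chosen after seeing the data.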

Additional observations from a re-analysis of the deposited data

Results flagged for a closer look

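In 40 sets of values, each from 1 group of 6, 7 or 9 rats, Dixon's criterion was applied to the gap between the outermost rat and its neighbour, which chance alone passes in about 1 in 20 groups. It was passed 4 times, 3 of them by rat 333. For ENSRNOG00000020659 rat 333 stood at 4.65 log2 CPM, below the other SHAM rats, of which the lowest was at 4.82. The 100 most abundant genes took 11.7% of the counts in rat 333 and at least 14.3% in the other SHAM rats. The tilt between the longest and shortest decile of genes was 0.4 (log2) in rat 333, against at most 0.13 in the other SHAM rats, and 0.24 in the SD rat 353, against at most 0.01 in the other SD rats.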

How the results depend on the processing

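The number of called genes, 2342, lay between 2024 and 2779 under 7 of the 8 other settings and rose to 4011 with the adjusted p-value alone, which removes the fold limit (1976 higher, 2035 lower). Leaving out 1 rat at a time gave 1898 to 2795 called genes, 1028 to 1553 higher and 870 to 1242 lower. No called gene turned direction under any of these 21 settings. With 2 surrogate variables 1771 of the 2342 calls (75.6%) were kept and the split was even (1019 higher, 1005 lower), against 55.1% higher at first. Genes without overlap numbered 1260, and 1318 to 2104 with 1 rat left out, where fewer rats make overlap less frequent by construction. They numbered 614 with the 2 low libraries kept and 2108 with rats 333 and 340 both left out. Counts by decile of level and length stayed within 1.5 times of the first values under all 7 settings tried. The 4 genes passed the threshold in all 84 values, with a highest adjusted p of 1.09e-05, and DESeq2's size factors moved their levels by at most 0.00808 log2 CPM. Alternatives for gene lists were not run, because identifiers were not paired with names. No paired analysis was possible because no rat belongs to both groups and the labels number the rats without shared replicates. Genes with few counts limit what could be tested at these depths, and 7 against 6 rats of 2 strains limit what the calls can be attributed to.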

Other observations

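In 2 genes, both below the filter on low counts, all 7 SHAM libraries had 0 counts while all 6 SD libraries had at least 4. Both lay on chromosome 1 of rn5, from 101014192 to 101030273 and from 266545541 to 266555034. The first had 5 to 10 counts in SD rats and a count in 13 of the 16 RYGB and RYGB-FMRR rats, up to 5. The second had 4 to 12 counts in SD rats and 1 count in 1 of these 16 rats. Set against 3 counts over the whole SHAM group, SHAM levels were at least 14.8-fold lower for the first and at least 18.2-fold lower for the second, counting error only. In the opposite direction, 4 genes had 0 counts in all SD libraries and at least 1 in all SHAM libraries, and 0 genes had at least 4. These genes were chosen after their values were seen.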
